A study of Homo sapiens with 12 samples.

Results

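The NDRG (N-myc downstream-regulated gene) family has 4 members in humans, NDRG1, NDRG2, NDRG3 and NDRG4, and each had a row among the 16389 genes counted in these HepG2 libraries. The rows were chosen by gene symbol. The family was examined because NDRG4 had the smallest p of the genes tested when valproic acid (VPA) was added to high glucose. Its values in every comparison that includes high-glucose cells, and in the interaction, are therefore given as a description, without a test. The other 3 genes were chosen by family name. All samples came from HepG2, an established line of human liver cancer cells. Cells were kept for 48 h in medium with 5.5 mM glucose (LG, normoglycaemic) or 20 mM glucose (HG, hyperglycaemic), and LGV and HGV cells then received 1 mM VPA, an inhibitor of histone deacetylases, for another 12 h, against LG and HG cells without VPA. Each group had 3 libraries of poly(A)-selected RNA. Whether the untreated cells were harvested at the start or the end of the VPA period, and whether the 3 libraries of a group came from separate cultures, is not given in the sources used here, so the p-values measure the spread between these samples, which may be partly technical.

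NDRG proteins share an alpha/beta hydrolase fold but lack the residues that an active hydrolase needs. They are named after NDRG1, whose mouse counterpart was found as a gene repressed by N-myc, and NDRG1 is known as a gene induced by hypoxia, metal chelation and other stress whose product is phosphorylated by the kinase SGK1 and then by GSK3. NDRG2 is repressed by MYC and is expressed in liver, muscle and brain, where it marks astrocytes. NDRG3 is broadly expressed, and its protein is degraded in the presence of oxygen and binds lactate. NDRG4 is known mainly from brain and heart, and its promoter is often methylated in colorectal cancer.

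NDRG4, the member with the large response to VPA, is annotated on GRCh37 on the plus strand of chromosome 16, from 58496750 to 58547532, and NDRG2 on the minus strand of chromosome 14, from 21484922 to 21539031. RefSeq (GRCh38.p14) gave 4 start windows for NDRG4 and 5 for NDRG2, each of 300 bases, from 250 before a transcription start to 50 after it, and every one matched the GRCh37 sequence once. A pair of NDRG4 windows, the most upstream and the most downstream, is printed because the response lay in this gene and the windows differ in base composition. The window of NDRG2 at its most downstream start is printed beside them as a member of the family whose count did not pass the test with VPA in either medium. The capitals mark the GC box (GGGCGG on either strand) and the TATA box (TATAAA on either strand), and overlapping matches were counted separately. The NDRG4 windows lie at chr16:58497369-58497668 and chr16:58533797-58534096 on the plus strand, and the NDRG2 window at chr14:21493171-21493470 on the minus strand (GRCh37).
NDRG4 upstream start: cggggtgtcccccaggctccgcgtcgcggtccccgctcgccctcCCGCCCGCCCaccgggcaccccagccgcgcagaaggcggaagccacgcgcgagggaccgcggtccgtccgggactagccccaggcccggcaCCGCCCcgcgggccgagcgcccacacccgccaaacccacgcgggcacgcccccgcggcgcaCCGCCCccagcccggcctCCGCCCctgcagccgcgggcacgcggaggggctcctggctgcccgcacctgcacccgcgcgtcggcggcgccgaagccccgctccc
NDRG4 downstream start: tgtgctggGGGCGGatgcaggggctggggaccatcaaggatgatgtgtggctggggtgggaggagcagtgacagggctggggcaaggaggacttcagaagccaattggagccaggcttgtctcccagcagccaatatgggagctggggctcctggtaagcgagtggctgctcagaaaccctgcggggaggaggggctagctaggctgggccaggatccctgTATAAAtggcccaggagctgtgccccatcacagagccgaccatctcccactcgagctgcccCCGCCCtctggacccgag
NDRG2 start: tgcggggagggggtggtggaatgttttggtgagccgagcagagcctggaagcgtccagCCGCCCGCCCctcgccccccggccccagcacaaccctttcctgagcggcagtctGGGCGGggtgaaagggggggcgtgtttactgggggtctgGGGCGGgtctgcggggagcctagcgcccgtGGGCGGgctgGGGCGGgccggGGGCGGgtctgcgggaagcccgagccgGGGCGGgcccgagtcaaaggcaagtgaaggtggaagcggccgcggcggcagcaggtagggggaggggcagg
The upstream NDRG4 window held 49 CpG dinucleotides, more than 98.4% of the 35116 human windows in the table, of which the median held 14. Its GC content was 83.0%, and it held 5 GC boxes and no TATA box. The downstream window, 36428 bases further along the gene, held 7 CpG and 2 GC boxes, with 64.0% GC and 1 TATA box. The NDRG2 window held 27 CpG and 8 GC boxes. The GC box was present in 45.0% of all windows and the TATA box in 11.5%. The E-box CACGTG, the site bound by MYC with MAX, is in 7.26% of all windows, and the hypoxia core ACGTG, whose letters lie inside the E-box, in 21.4%. Neither was found in the 9 windows of NDRG2 and NDRG4, which says only that these letters are not in these windows. The counts are per gene, so which start was used in HepG2 cells cannot be told from them.

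Between 29798442 and 45572694 reads per library were counted on the 16389 genes, and levels are given as CPM, which are counts scaled to a common library size with TMM factors. The 10 hepatocyte markers, among them ALB, AFP and HNF4A, were all measured, with a summed level between 41330 and 67180 CPM over the 12 libraries, while PTPRC, PECAM1, COL1A2, COL3A1 and CD68, markers of blood, endothelial and stromal cells, are not analysed here because they had no row. No replicate pair was close enough to be the same library counted again. The summed hepatocyte level was 54920 to 62620 CPM in LG and 41330 to 42360 in LGV, without overlap, and 58540 to 67180 in HG and 50610 to 64270 in HGV, with overlap. These are bulk samples, in which fewer cells of a type and less RNA per cell cannot be told apart.

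NDRG4 was the member that moved with VPA. Its count was 99, 123 and 148 in the 3 LG libraries and 1728, 1279 and 1640 in LGV, or 3.70, 3.07 and 3.78 CPM against 51.8, 41.5 and 43.8 CPM. Every LGV library lay far above every LG library, in 9 of 9 pairs. The mean level was 3.52 ± 0.389 CPM in LG (SD, n = 3) and 45.7 ± 5.41 CPM in LGV (SD, n = 3). The log2 fold change was 3.71 (standard error 0.16, 95% interval 3.37 to 4.05, edgeR quasi-likelihood FDR 2.11e-09), a 13.1-fold rise (10.4 to 16.6). Libraries of LG and LGV played no part in the comparison that drew attention to the gene. Among 15944 genes tested NDRG4 was 6th by p and 284th by the size of the rise.

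In high glucose the count of NDRG4 was 89, 91 and 93 in HG and 2385, 2944 and 2423 in HGV, or 2.82, 2.72 and 2.60 CPM against 73.1, 70.0 and 71.3 CPM. The replicates of both groups were close together, with an SD of 0.109 CPM around 2.72 in HG and of 1.58 CPM around 71.5 in HGV (n = 3 each). As a description, the log2 difference was 4.72 (standard error 0.12, 95% interval 4.45 to 4.98), or 26.3-fold (21.9 to 31.6), and it was 180th of 16188 genes by the size of the rise. The narrow spread in these 6 libraries is part of what gave the gene the smallest p, so it is no independent sign of precision.

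**Figure D1:**
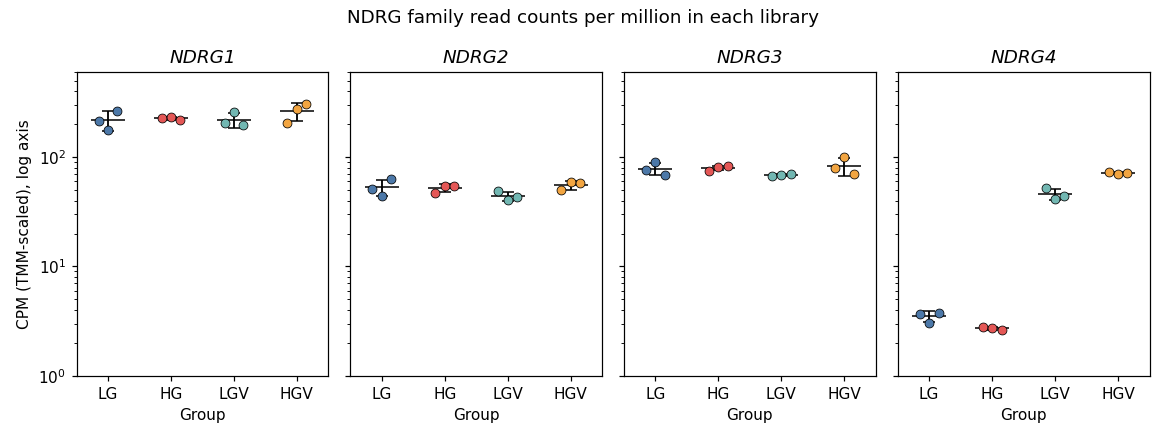
CPM of each NDRG gene in the 12 libraries on a log axis (coloured points, 1 per library), with the group mean and SD (n = 3) in black. NDRG4 lies between 2.60 and 3.78 CPM without VPA and between 41.5 and 73.1 CPM with it, while the levels of the other 3 genes overlap between most groups.

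NDRG1 had the highest CPM of the family in every library, and its groups overlapped. It measured 215, 175 and 265 CPM in LG, 205, 256 and 195 in LGV, 227, 231 and 217 in HG and 207, 276 and 307 in HGV. The highest library was 1.76 times the lowest. In LGV against LG the log2 fold change was 0.01 (95% interval -0.32 to 0.35, FDR 0.952), which bounds any change between 0.799-fold and 1.28-fold. In HGV against HG it was 0.23 (-0.07 to 0.52, FDR 0.191), and 1 library decided this call, since without HGV replicate 1 it was 0.37 with an FDR of 0.0211.

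NDRG2, the member repressed by MYC, measured 51.5, 44.4 and 62.5 CPM in LG, 48.4, 40.3 and 42.9 in LGV, 46.8, 54.3 and 54.6 in HG and 49.8, 59.0 and 57.3 in HGV. The lowest values were in LGV, but those of LG overlapped them. The log2 fold change was -0.26 in LGV against LG (-0.55 to 0.04, FDR 0.162) and 0.09 in HGV against HG (-0.15 to 0.34, FDR 0.525). Without LG replicate 2 the former passed the test, at -0.37 with an FDR of 0.0342.

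NDRG3, the member whose protein is controlled by oxygen, measured 76.6, 89.6 and 69.1 CPM in LG, 67.0, 68.8 and 70.0 in LGV, 75.3, 80.8 and 82.4 in HG and 79.5, 99.6 and 69.4 in HGV. The groups overlapped in both VPA comparisons. The log2 fold change was -0.18 in LGV against LG (-0.44 to 0.08, FDR 0.253) and 0.06 in HGV against HG (-0.22 to 0.34, FDR 0.735). Of the 4 members, 1 was called in LGV against LG, NDRG4, where 41.6% of all genes were called, 21.7% higher and 19.9% lower. The same count in HGV against HG, 1 of 4, was fixed by how the family was found, and 46.1% of all genes were called there, 25.8% higher and 20.2% lower. These splits rest on the scaling, since with library size alone in place of TMM factors the median log2 fold change of all genes moved up by 0.16 in LGV against LG and 0.12 in HGV against HG, and 69.7% and 68.1% of the calls were higher, against 52.1% and 56.1%. NDRG4 lay far outside such shifts, and the call of no member in these comparisons changed with the scaling.

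Glucose without VPA gave no call in NDRG1, NDRG2 or NDRG3 with edgeR or with DESeq2. None of them had an unadjusted edgeR p under 0.05 in the fit of the LG and HG libraries or in one fit of the 12 libraries. In HG against LG the log2 fold change was 0.07 for NDRG1 (95% interval -0.22 to 0.36, FDR 0.756), 0.00 for NDRG2 (-0.30 to 0.30, FDR 0.993) and 0.04 for NDRG3 (-0.23 to 0.31, FDR 0.836). NDRG4 had the widest interval, at -0.35 (-0.80 to 0.10), although each of the 3 HG libraries lay below each of the 3 LG libraries. In this comparison 24.7% of all genes were called, 12.0% higher and 12.7% lower, so 48.6% of the calls were higher, against 64.3% with upper quartile factors. The HG libraries had entered the comparison that drew attention to NDRG4, so its difference here is given as a description, without a test.

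Under VPA, NDRG4 and, less firmly, NDRG2 were at a higher level in high glucose. NDRG4 was 71.5 ± 1.58 CPM in HGV and 45.7 ± 5.41 CPM in LGV (SD, n = 3 each), without overlap, and differed by 0.63 on the log2 scale (standard error 0.12, 95% interval 0.37 to 0.88). Since the HGV libraries were among those that drew attention to the gene, this difference too is given as a description, without a test. NDRG2 was 55.4 ± 4.91 CPM in HGV and 43.9 ± 4.14 in LGV, also without overlap, and differed by 0.32 (standard error 0.12, 0.06 to 0.57, FDR 0.047). That call was lost with DESeq2's size factors (FDR 0.0564), with the Wald test of DESeq2 (FDR 0.051) and without HGV replicate 2 (FDR 0.0783), HGV replicate 3 (FDR 0.122), LGV replicate 2 (FDR 0.194) or LGV replicate 3 (FDR 0.163). NDRG1 and NDRG3 did not pass the test, both at 0.25 (FDR 0.2 and 0.131), but NDRG3 did without HGV replicate 3 (0.37, FDR 0.0485), with upper quartile factors (FDR 0.0432) and with library size alone (FDR 0.0449). The 2 members with an FDR of 0.05 or less, of which NDRG4 is not independent of how the family was found, stand against 40.7% of all genes in HGV against LGV, 21.2% higher and 19.5% lower (52.2% of the calls higher, and 63.5% with upper quartile factors).

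The VPA response was compared between media with the interaction over the 12 libraries. NDRG4 had a log2 ratio of the VPA folds of 1.01 (standard error 0.19, 95% interval 0.62 to 1.41). It is given as a description, since the libraries of the comparison that drew attention to the gene enter the interaction. None of the other members passed the test with edgeR or DESeq2 over the 12 libraries, or had an unadjusted edgeR p under 0.05 there, at 0.22 for NDRG1 (-0.23 to 0.68, FDR 0.761), 0.36 for NDRG2 (-0.03 to 0.75, FDR 0.484) and 0.25 for NDRG3 (-0.13 to 0.63, FDR 0.646), where 0.0427% of all genes were called. For NDRG2 the unadjusted edgeR p fell under 0.05 without LG replicate 2, LGV replicate 1 or HGV replicate 1, and the FDR did not.

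**Figure D2:**
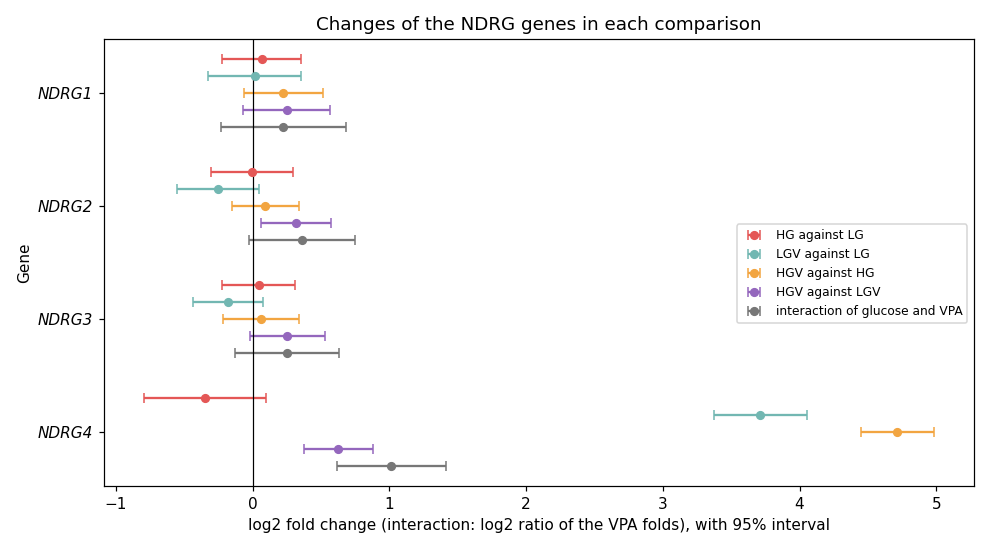
Log2 fold change of each NDRG gene in 4 comparisons and the log2 ratio of its VPA folds (points), with 95% intervals. NDRG4 stands at 3.71 in LGV against LG and 4.72 in HGV against HG, while the intervals of NDRG1, NDRG2 and NDRG3 in these comparisons include 0.

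Levels of different genes can be set side by side only per length. Per kb of merged exons, NDRG4 took 0.734 ± 0.0674% of the summed CPM per kb of the family in LG and 9.53 ± 1.30% in LGV, and 0.561 ± 0.0377% in HG and 12.0 ± 1.51% in HGV (SD, n = 3 each). With VPA in high glucose its level of 7.41 ± 0.163 CPM per kb was within the spread of that of NDRG2, 7.33 ± 0.650 CPM per kb. NDRG3 was then the largest share, at 48.7% in LG, 42.3% in LGV, 48.5% in HG and 40.9% in HGV, followed by NDRG1 at 35.3% to 37.3% of the family in the 4 groups. The order of the means of these 2 genes rested on the length used, and NDRG1 exceeded NDRG3 per kb of merged exons in LG replicate 3, LGV replicate 2 and HGV replicate 3. Per kb of the longest annotated transcript, NDRG1 led with 52.0% to 55.9% and NDRG3 had 22.1% to 26.9%. On that length NDRG4 had 0.691% in LG, 8.83% in LGV, 0.525% in HG and 11.2% in HGV. Its likeness to NDRG2 in HGV also rested on the length used. Per kb of the longest transcript NDRG4 was at 14.0 ± 0.308 CPM, below NDRG2 at 18.6 ± 1.65 CPM (SD, n = 3 each).

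**Figure D3:**
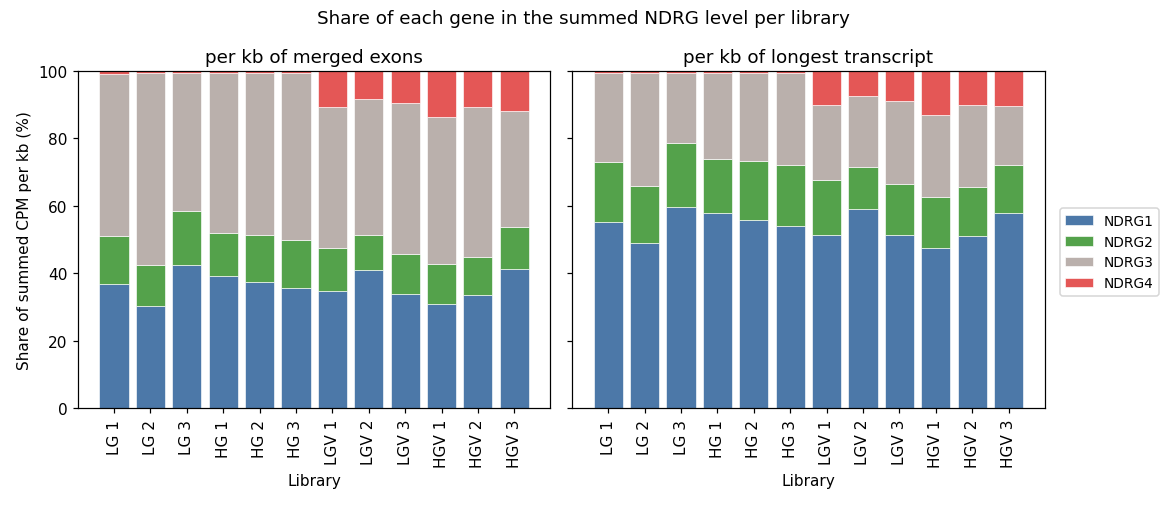
Share of each NDRG gene in the summed CPM per kb of the family in each of the 12 libraries, per kb of merged exons (left) and of the longest transcript (right). The NDRG4 part widens from under 1% to between 7.44% and 13.6% with VPA in both panels, while NDRG3 exceeds NDRG1 in 9 of 12 libraries on the left and in none on the right.

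Reads of 50 nt can be shared between similar genes, so the transcripts of the family were cut into all runs of that length. None of them occurred in more than 1 member, and none of the 11113 from NDRG4 occurred in any other gene. For NDRG2, 2.66% occurred in reverse in other genes, since its exons overlap those of TPPP2 by 236 bases and those of the long noncoding RNA AL161668.5 by 173 bases, both on the opposite strand. The library kit kept the strand, but whether the counting used it is not given in the sources used here, so reads in these parts of NDRG2 are uncertain. TPPP2 passed the test at 1.02 in LGV against LG (FDR 0.00799), with 0.839 CPM in LG and 1.69 in LGV, and AL161668.5 at 1.51 (FDR 0.000994), both low beside NDRG2. NDRG1 is annotated on the minus strand of chromosome 8, from 134249418 to 134314265, and shares 753 exonic bases with a long noncoding RNA on the same strand, and 5.27% of its runs occurred in other genes. NDRG3 lies on the minus strand of chromosome 20, from 35280169 to 35374493, and 2.33% of its runs occurred in other genes and a further 2.06% in reverse (GRCh37, GENCODE).

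The genes beside NDRG4 did not share the size of its response. SETD6, a lysine methyltransferase gene that starts 1.85 kb beyond the end of NDRG4, was lower with VPA in both media, with 28.7 CPM in LG and 22.3 in LGV (log2 fold change -0.35, FDR 0.0487) and 30.5 CPM in HG and 22.9 in HGV (-0.41, FDR 0.00825). With library size alone both calls were lost (FDR 0.343 and 0.0523), and with upper quartile factors the former (FDR 0.132). CNOT1, the scaffold of the CCR4-NOT deadenylase, lies 6.32 kb away and did not pass the test (-0.15 and -0.21). On the other side GINS3, a replication factor 56.7 kb away, passed the test in LGV against LG (0.61, FDR 0.0132) but not in HGV against HG (0.15, FDR 0.452). CCDC113, 179 kb away, was higher in both, by 2.21 (FDR 0.00781) and 1.76 (FDR 2.47e-05). Its level was low, at 0.219 CPM in LG, 1.08 ± 0.89 in LGV (SD, n = 3), 1.12 in HG and 3.78 in HGV. It was also higher in HG against LG without VPA (2.27, FDR 0.000583).

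Around the other members some of the measured neighbours passed the test with VPA, while METTL17 and TMEM253 beside NDRG2 and RP11-629O1.2 beside NDRG1 passed it in neither medium. SLA2, an adaptor gene 5.57 kb from NDRG3, was lower in HGV against HG (-1.42, FDR 6.26e-05), and DSN1, a kinetochore gene 5.70 kb away on the other side, was higher (0.43, FDR 0.0304), but neither passed in LGV against LG (FDR 0.106 and 0.897). ZNF219, 19.2 kb from NDRG2, was lower in LGV against LG (-0.55, FDR 0.00264) and in HGV against HG (-0.63, FDR 0.000381). On each side the nearest measured gene of NDRG1 was farther away. ST3GAL1, a sialyltransferase at 153 kb, was lower in LGV against LG (-0.60, FDR 0.00129) and did not pass in HGV against HG (FDR 0.419). PHF20L1, at 388 kb on the other side, did not pass the test in either VPA comparison. LRRC6, at 562 kb, was at 0.0845 CPM in LG, 0.519 in LGV, 0.146 in HG and 0.789 in HGV. It had too few reads without VPA to be tested in HG against LG.

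**Figure D4:**
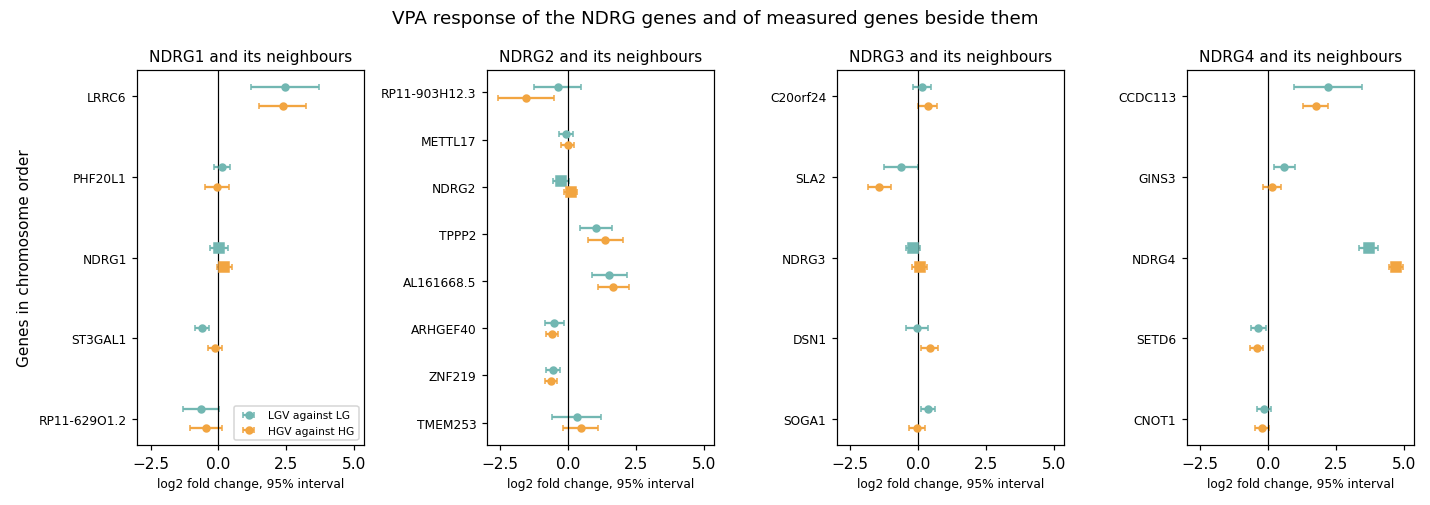
Log2 fold change with 95% interval of each NDRG gene (squares) and of the measured genes overlapping it or beside it (circles), in LGV against LG and HGV against HG, in chromosome order. NDRG4 is at 3.71 and 4.72, while SETD6 and CNOT1 next to it lie between -0.41 and -0.15.

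The genes most like each member across the 12 libraries were found by the Pearson correlation of log2 CPM, as a description. The libraries come from 4 groups, so a gene that differs between groups as the member does will correlate with it. NDRG4 had the closest likenesses, DZANK1 (r = 0.997), BIN1 (r = 0.996), APLP1 (r = 0.996), RARG (r = 0.996) and HAP1 (r = 0.996). These genes were also low without VPA, with BIN1, a membrane-curving protein, at 0.705 CPM in LG, 7.49 in LGV, 0.586 in HG and 12.6 in HGV, and HAP1, a binding partner of huntingtin, at 0.779, 11.0, 0.770 and 21.6 CPM. By Spearman's rho the same 5 genes ranked between 22 and 339 of 16388 genes. For NDRG2 the first gene was MRPL28, a mitochondrial ribosomal protein (r = 0.950), followed by TMEM141 (r = 0.940) and UROS, an enzyme of haem synthesis (r = 0.928). For NDRG3 it was ICMT (r = 0.836) and for NDRG1 RNASET2 (r = 0.847), and PFKFB4, a glycolytic regulator induced by hypoxia, also followed NDRG1 (r = 0.835). Between members the coefficient ran from -0.171 for NDRG3 with NDRG4 to 0.568 for NDRG1 with NDRG2 over the same 12 libraries.

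The MYC and MAX network, from which the family has its name, changed in both directions. MYCN, the gene of N-myc itself, had no row and is not analysed here. Of the 13 measured genes of the network 3 rose and 4 fell in LGV against LG. Their median log2 fold change was -0.25 against -0.01 over all genes. In HGV against HG 4 rose and 3 fell (0.19 against 0.02). Of all genes 21.7% rose and 19.9% fell in the former and 25.8% rose and 20.2% fell in the latter. With library size alone these counts were 4 and 2 in LGV against LG and 7 and 2 in HGV against HG. MYC itself, named here after its values were seen, fell from 357 to 258 CPM with VPA in low glucose (-0.46, FDR 0.00901) and from 366 to 279 CPM in high glucose (-0.39, FDR 0.00772). MYCL rose in both (0.98, FDR 0.00935, and 0.87, FDR 0.000355). MXI1, an antagonist of MYC, rose in LGV against LG (0.92, FDR 3.05e-05) and in HGV against HG (0.43, FDR 0.00432). MLXIPL, the glucose-responsive factor ChREBP, fell in both (-0.81, FDR 0.000172, and -0.64, FDR 0.00104). In HG against LG 2 rose and 2 fell, beside 12.0% and 12.7% of all genes. In HGV against LGV 3 rose and 4 fell, beside 21.2% and 19.5% of all genes.

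The kinases that phosphorylate NDRG proteins, and their activators, had no gene that rose with VPA under TMM factors. Of the 12 genes 6 fell in LGV against LG and 5 in HGV against HG (medians -0.41 and -0.22), beside 19.9% and 20.2% of all genes, and with library size alone 6 fell and 1 rose in the former and 4 fell and 1 rose in the latter. SGK1, the kinase of NDRG1, fell from 46.2 to 10.8 CPM in low glucose (-2.08, FDR 7.22e-07) and from 46.5 to 16.2 CPM in high glucose (-1.52, FDR 4.12e-07). PDPK1, which activates SGK and AKT kinases, fell in LGV against LG (-0.70, FDR 0.000189). It also fell from 109.6 to 61.7 CPM in HGV against HG (-0.83, FDR 1.64e-05). MLST8, a subunit of the mTOR complexes, fell in both media (-1.01, FDR 0.000103, and -0.67, FDR 0.000689). SGK2 fell in LGV against LG (-0.90, FDR 0.00392). These are RNA levels, and no phosphorylation of an NDRG protein was measured in these libraries. Without VPA 3 of the 12 fell in HG against LG, beside 12.7% of all genes. Under VPA 2 rose and 2 fell in HGV against LGV, beside 21.2% and 19.5% of all genes.

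NDRG1 and NDRG3 are known for their ties to oxygen sensing. Of the 10 oxygen-sensing genes 2 rose in LGV against LG and 4 in HGV against HG, beside 21.7% and 25.8% of all genes, and none fell. HIF3A, a negative regulator of the hypoxia response, rose by 2.60 (FDR 4.66e-06), from 0.507 to 3.08 CPM, and by 2.72 (FDR 5.89e-06), from 1.02 to 6.69 CPM. ARNT2 rose by 1.89 (FDR 2.94e-05) and 2.27 (FDR 1.76e-06), and the prolyl hydroxylase gene EGLN3 rose by 0.99 in HGV against HG (FDR 0.000255). Of 21 hypoxia-inducible targets 3 rose and 5 fell in LGV against LG (median -0.14) and 6 rose and 3 fell in HGV against HG (median 0.17), beside 21.7% and 25.8% of all genes higher and 19.9% and 20.2% lower. These counts rested on the scaling, and with library size alone 4 rose and 4 fell in the former (median 0.01) and 9 rose and 1 fell in the latter (median 0.29). ADM rose in both (1.01, FDR 0.000882, and 0.78, FDR 0.000778), and PFKFB3 and PFKFB4 rose in HGV against HG (1.28, FDR 0.000409, and 1.12, FDR 0.000162). DDIT4 and STC2 fell in LGV against LG (-0.79, FDR 0.000457, and -0.70, FDR 0.000232). STC2 fell in HGV against HG too (-0.45, FDR 0.0033). Of the oxygen-sensing genes 1 rose and 2 fell in HG against LG and 3 rose and 3 fell in HGV against LGV. Of the targets 1 rose and 3 fell in HG against LG and 5 rose and 3 fell in HGV against LGV. Beside these stood 12.0% of all genes higher and 12.7% lower in the former comparison, and 21.2% and 19.5% in the latter.

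Among 6 genes listed as partners of NDRG proteins, 2 rose and 1 fell in each VPA comparison under TMM factors. Beside these stood 21.7% of all genes higher and 19.9% lower in LGV against LG, and 25.8% and 20.2% in HGV against HG. CDH1, the epithelial cadherin, rose from 10.1 to 56.1 CPM in low glucose (2.49, FDR 7.73e-09) and from 19.2 to 77.9 CPM in high glucose (2.02, FDR 9.14e-08). BVES, a membrane protein that binds NDRG4, rose from 1.43 to 6.64 CPM (2.23, FDR 3.11e-06) and from 1.61 to 5.16 CPM (1.67, FDR 1.21e-05). CDH1 was also the gene of this list that rose in HG against LG (0.96, FDR 0.000394) and in HGV against LGV (0.46, FDR 0.00359). Of all genes 12.0% and 21.2% rose in these comparisons.

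NDRG4 is best known from brain, and some neuronal genes were higher with VPA beside it. Of the 18 listed, 9 had a row, and SNAP25, STMN2, SYT1, GAP43, MAP2, NEFL, NEFM, CHGA and SCG3 are not analysed here. Of these 9, 5 had enough reads without VPA to be tested in HG against LG, namely ENO2, MAPT, STMN3, SYP and TUBB3. In LGV against LG 4 of the 5 rose and none fell, beside 21.7% of all genes higher, and in HGV against HG 3 of the 5 rose and none fell, beside 25.8%. The summed level of the 9 genes was 95.9 to 115 CPM in LG, 199 to 224 in LGV, 109 to 123 in HG and 221 to 237 in HGV. This sum includes genes that had a row only through their reads with VPA, so it is a description. SYP, a synaptic vesicle protein, rose from 6.10 to 23.7 CPM (1.97, FDR 3.80e-07) and from 7.05 to 38.7 CPM (2.45, FDR 1.30e-07). NCAM1, a neural cell adhesion molecule, had no read in the LG libraries, at most 4 in an HG library and 2.14 CPM in LGV. It had a row only through its reads with VPA, so it could only come out higher and is no evidence of a rise. Without VPA 1 of the 5 rose in HG against LG, beside 12.0% of all genes. Under VPA 2 of the 5 rose in HGV against LGV, beside 21.2% of all genes.

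NDRG2 is an astrocyte marker, and of 7 astrocyte genes 3 had a row, without AQP4, GJA1, S100B and SLC1A3. GFAP was at 0.0337 CPM in LG and 0.908 in LGV, and at 0.0404 in HG and 1.63 in HGV. With control counts of at most 3 reads, it had a row only through its reads with VPA. ALDH1L1 fell in both media (-1.65, FDR 7.83e-07, and -1.36, FDR 4.70e-06). Of the 10 hepatocyte markers 7 fell in LGV against LG, beside 19.9% of all genes lower. In HGV against HG 1 rose and 3 fell, beside 25.8% higher and 20.2% lower. FGA, the fibrinogen alpha chain, was at -1.16 (FDR 5.79e-05) and -0.84 (FDR 0.000497) in these comparisons. In HGV against LGV 5 of the 10 rose and none fell (median 0.43), beside 21.2% higher and 19.5% lower. With library size alone 6 fell in LGV against LG, 1 rose and 2 fell in HGV against HG, and 8 rose in HGV against LGV. Of the 9 markers of blood, endothelial and stromal cells 4 had a row and 3, ACTA2, LYZ and VWF, had enough reads without VPA to be tested in HG against LG. Of these 3, ACTA2 fell in each VPA comparison (-0.77, FDR 0.000593, and -0.76, FDR 0.000389), and ACTA2 and LYZ rose in HGV against LGV (0.99, FDR 5.38e-05, and 0.61, FDR 0.00185). The part of other cell types in the NDRG4 response was not tested.

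**Figure D5:**
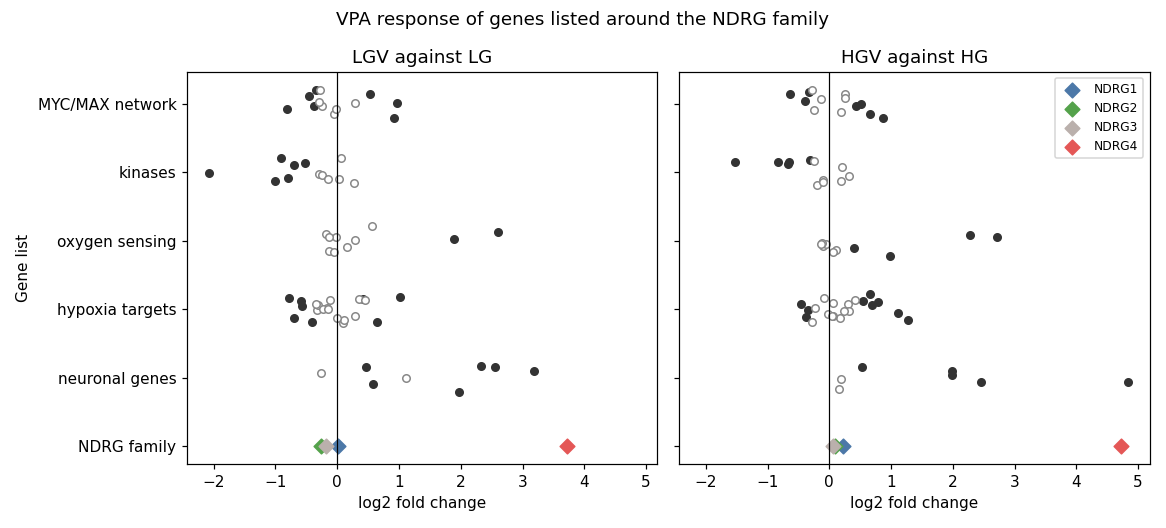
Log2 fold changes of the genes in 5 lists (circles, filled where the FDR is 0.05 or less) and of the NDRG genes (diamonds), in LGV against LG and HGV against HG. Each panel leaves out genes with at most 3 reads in every library of its own group without VPA. These include NCAM1 in LGV against LG and UCHL1 in HGV against HG, both with larger estimates than NDRG4. The neuronal row keeps NCAM1 in HGV against HG, UCHL1 and RBFOX3 in LGV against LG, and DPYSL3 in both. These genes had too few reads without VPA to be tested in HG against LG, so their points are only a description. NDRG4, at 3.71 and 4.72, lies to the right of most genes shown.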

How the data were processed

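The authors deposited raw counts, without normalization, for 16389 Ensembl genes in 12 libraries. Per the labels and the study's methods, 50 nt single-end reads were aligned with STAR to GRCh37 and counted with featureCounts, and genes averaging under 10 reads had been removed, as the values also showed. No batch is named. The comparisons used the quasi-likelihood F test of edgeR 4.0.16 (R 4.3.3) with TMM factors, on the groups compared only, or on the 12 libraries for the interaction. Genes averaging 10 or more reads in those libraries entered, and p-values were adjusted over all of them by Benjamini-Hochberg, with calls made up to an FDR of 0.05. Intervals are 95% and cover the spread between libraries. The test was tested on simulated data. DESeq2 1.42.0, other scalings and filters, a replicate block and leaving out each library were alternatives. GENCODE on GRCh37 placed 97.47% of genes by identifier. Its exon models are not those used for counting, so levels per kb are approximate. The members and the 10 lists (122 entries) were chosen with earlier results of these data known, and 1 list and some genes are not reported here. Named genes were the members, the 5 most correlated with each, the nearest 2 measured genes on either side and up to 3 called genes with the largest changes per list and comparison, of which the text gives a part.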

Additional observations from a re-analysis of the deposited data

How the results depend on the processing

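The rise of NDRG4 in LGV against LG lay between 3.62 and 3.88 (log2) over all alternatives and its difference in HGV against HG between 4.68 and 4.84. No value of a member past the test reversed. Same-numbered libraries did not deviate together in every pair (r from -0.201 to 0.295). In HGV against LGV r was 0.026 to 0.195, and in the other comparisons of groups it had both signs. The deviations of 3 libraries around their own mean depend on each other, so whether the numbers pair the samples was not tested. With the replicate block the calls were 3351 in HG against LG, 8229 in HGV against HG, 6971 in LGV against LG, 7308 in HGV against LGV and 13 in the interaction. At an FDR of 0.01, HG against LG had 1852 calls (3813 at 0.05), HGV against LGV 4263 (6604) and the interaction 1 (7). The interaction had 1 call with library size alone and 162 with the Wald test of DESeq2. Leaving out 1 library gave 1933 (without LG replicate 1) to 5338 calls in HG against LG, with 2076 without HG replicate 3, and 1 to 217 in the interaction, with 217 without LG replicate 2, 67 without LG replicate 3 and 22 without LGV replicate 1. It gave 6083 to 7793 calls in HGV against HG, 4942 to 6986 in LGV against LG and 4516 to 7228 in HGV against LGV.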
